A study of Bos grunniens and Bos grunniens x Bos taurus with 12 samples.

Results

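The Hippo effectors and the vestigial-like cofactor *VGLL3* were followed across 12 ribosome footprint (Ribo-seq) libraries of testis. The set was named by symbol and holds 10 genes: the coactivators *YAP1* and *WWTR1*, the DNA-binding partners *TEAD1*, *TEAD2*, *TEAD3* and *TEAD4*, the kinases *LATS1* and *LATS2*, the cofactor *VGLL3* and the angiomotin family member *AMOTL2*. Of these, 9 had a row among the 20965 genes of the deposited tables, and *TEAD1* was not analysed here. *VGLL3* was chosen by these measured values, as its level in cattle–yak lay below that of every yak group. Its values in comparisons with cattle–yak are therefore given as a description, with no test, and it is left out of the counts of those comparisons.

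The libraries came from 4 groups of 3 male animals each: yak of 6 months (juvenile), 18 months (puberty) and 4 years (sexual maturity), and cattle–yak for which 4 years is also given. The cattle–yak is the sterile male hybrid of a cattle bull and a yak cow, here from Jersey bulls and Gannan yak cows. No treatment is named for any group. The sample descriptions name castration for all animals, whereas the methods name euthanasia for the yak of 4 years and castration for the cattle–yak, so that the way of collection and the cross cannot be told apart. Reads of the hybrid, which carries cattle and yak alleles, were aligned to the yak genome, and the part of this in the differences was not tested.

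The Hippo pathway restrains tissue growth through a chain of kinases. STK3 and STK4, with the scaffold SAV1, activate LATS1 and LATS2, which phosphorylate YAP1 and WWTR1 (also called TAZ) and hold them in the cytoplasm. Where the kinases are inactive, YAP1 and WWTR1 enter the nucleus and bind TEAD proteins, which cannot activate transcription without a cofactor. Vestigial-like proteins have no DNA-binding domain of their own and bind the same TEAD proteins, in part over the surface that YAP1 uses. AMOTL2 binds YAP1 at cell junctions and is itself a well-known YAP1 and TEAD target. *VGLL3* is known for its association with the age at maturity in Atlantic salmon, and LATS1 and LATS2 for keeping the identity of mouse Sertoli cells.

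Total counts were 25816963 to 37167651 in yak of 6 months, 21309151 to 24542362 in yak of 18 months, 16304058 to 17862516 in yak of 4 years and 38437889 to 52616039 in cattle–yak. Defining markers of testis were present in every group. The summed FPKM (footprints scaled to gene length and to the total of the library) of 5 spermatid markers was 9670 to 12500 in yak of 4 years, 2.98 to 32.0 in cattle–yak and 1.38 to 1.70 in yak of 6 months. Yak of 18 months replicate 2 stood apart with 7200, against 2.86 and 17.0 in the other libraries of its group, and results that rest on it are given with and without it. In footprints of whole tissue, fewer cells of a type, less RNA per cell and less translation of that RNA cannot be told apart. The RNA-seq that the paper names for its samples was not used here. The summed FPKM of 6 Sertoli cell markers was 6160 to 7610 at 6 months, 623 to 860 at 4 years and 1140 to 1410 in cattle–yak. For 5 peritubular myoid markers it was 141 to 242, 211 to 219 and 780 to 1290 in the same order. Single markers did not all follow these sums. At 4 years against 6 months their log2 fold changes ran from −4.11 to −0.83 for Sertoli and from −3.15 to 0.94 for myoid markers. In cattle–yak against yak of 6 months they ran from −3.46 to 0.66 and from −0.99 to 3.25. The part of these cell types in the values of the Hippo genes was not tested.

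Differentially translated genes (DTGs) were called with the quasi-likelihood test of edgeR at an adjusted p below 0.05 (Benjamini–Hochberg over all tested genes) and a fold change whose log2 was 1 or more in size. The term stands for a change in footprint counts, which hold RNA level and translation together. Levels are given as FPKM. Fold changes use counts scaled by the trimmed mean of M values (TMM), so that against yak of 6 months they can differ from the ratio of FPKM, which follows the library total alone.

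Of the 8 genes tested between cattle–yak and yak of 4 years, 3 were DTGs. *AMOTL2* was higher, and *TEAD2* and *TEAD4* were lower in cattle–yak. Over all genes tested in this comparison 44% were DTGs, 17.1% higher and 27% lower, so the share among the Hippo genes is not a result about them. The libraries of both groups did not overlap in scaled counts for 7 of the 8 genes, *TEAD3* being the exception, and for 71.5% of all genes. The median log2 fold change over the 9 genes including *VGLL3* was 0.43, from −2.20 for *VGLL3* to 1.89 for *AMOTL2*. Within the set, the coactivators, *TEAD3*, *LATS1* and *AMOTL2* lay on the higher side in cattle–yak and *TEAD2*, *TEAD4*, *LATS2* and *VGLL3* on the lower side. The TEAD genes thus did not move one way.

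The level of *VGLL3* (ENSBGRG00000000004) was 13.7, 19.1 and 26.4 FPKM in the libraries of yak of 6 months. It was 19.8, 21.3 and 14.7 FPKM at 18 months and 34.1, 40.6 and 27.2 FPKM at 4 years. The cattle–yak libraries had 6.62, 4.43 and 10.99 FPKM. Each cattle–yak library lay below each of the 9 yak libraries, which is the pattern *VGLL3* was chosen for. Behind these levels stood 174 to 429 counts in cattle–yak and 450 to 737 in yak of 4 years. On the log2 scale cattle–yak differed by −2.20 from yak of 4 years, a level 4.61-fold lower, by −1.95 from yak of 6 months and by −1.49 from yak of 18 months. With 1 library left out it ranged from −2.58 to −1.94, from −2.34 to −1.68 and from −1.92 to −1.25, respectively. The ratio of counts to FPKM, which follows the effective length that the authors used, was 0.753 to 0.755 relative to the typical gene in every library.

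With age in yak, *VGLL3* was no DTG. The change was −0.40 on the log2 scale (SE 0.283, adjusted p = 0.389) at 18 months against 6 months and 0.67 (SE 0.270, adjusted p = 0.136) at 4 years against 18 months. At 4 years against 6 months it was 0.23 (SE 0.228, adjusted p = 0.379, all edgeR). The ranges at 6 and 18 months overlapped, while each library of yak of 4 years was higher in FPKM than each juvenile or pubertal one. After scaling by TMM the ranges at 4 years and 6 months overlapped.

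**Figure D1:**
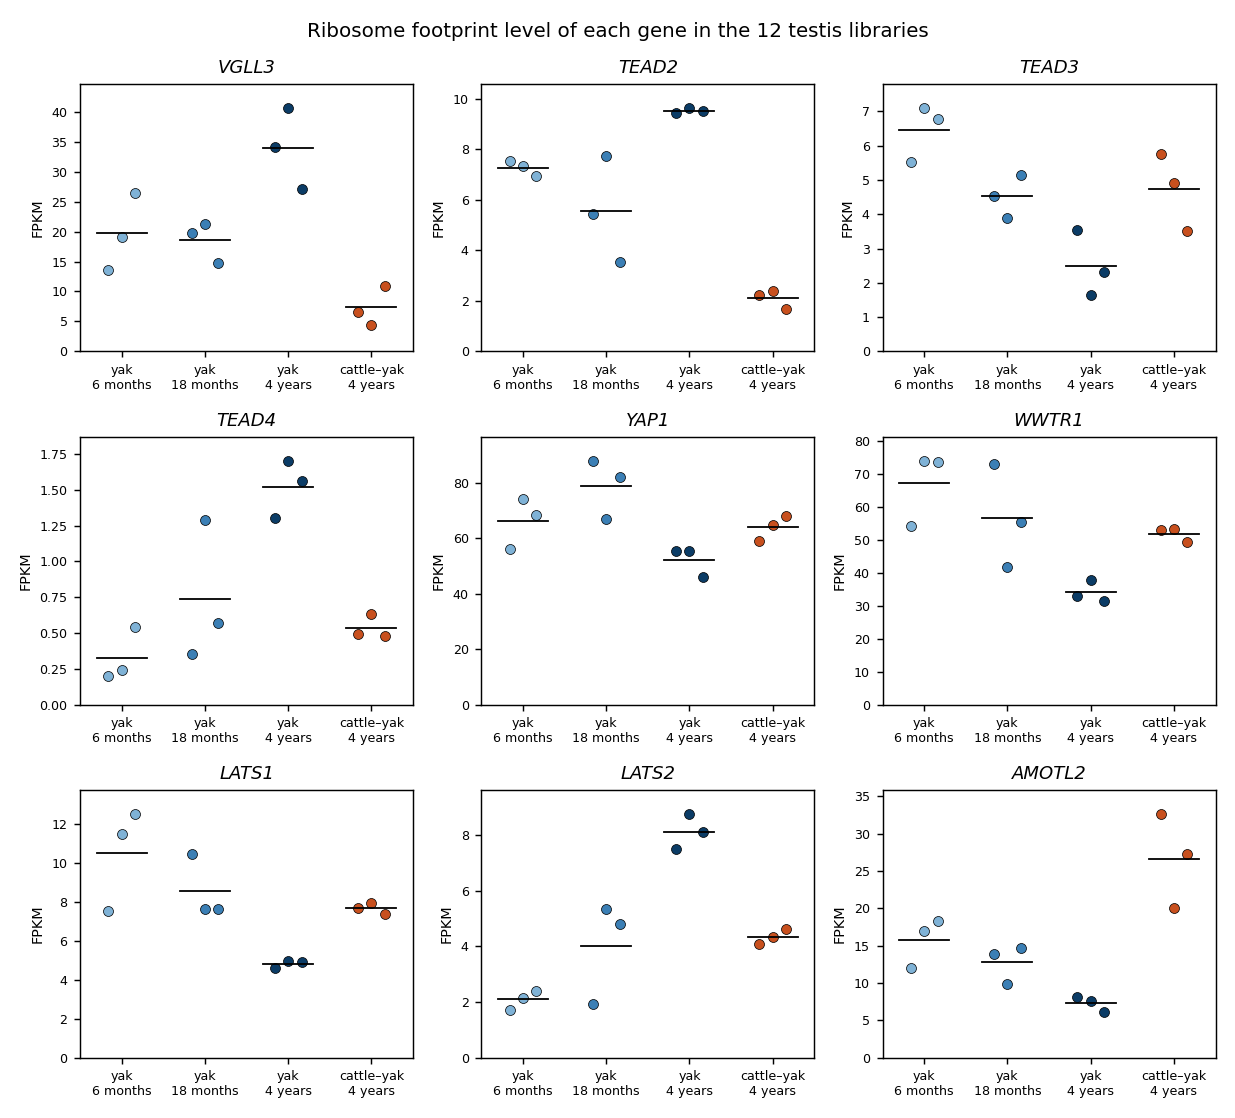
FPKM of the 9 Hippo genes with a row in each of the 12 testis libraries (points, 3 per group; bars are group means), in 1 panel a gene with its own axis. The 3 cattle–yak libraries lie below all yak libraries for *VGLL3* and *TEAD2* and above them for *AMOTL2*, where they overlap with yak of 6 months after TMM scaling.

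*TEAD2* (ENSBGRG00000015338), the TEAD gene best known from early embryonic tissue, was the other gene whose cattle–yak libraries lay below all yak libraries. Its level was 7.53, 7.32 and 6.94 FPKM at 6 months, 5.45, 7.74 and 3.52 FPKM at 18 months and 9.43, 9.63 and 9.53 FPKM at 4 years. The cattle–yak libraries had 2.22, 2.38 and 1.69 FPKM, from 92 to 165 counts. Against yak of 4 years the log2 fold change in cattle–yak was −2.17 (SE 0.209, adjusted p = 4.13e-05, edgeR), 4.50-fold lower. Against yak of 6 months it was −2.32 (SE 0.222, adjusted p = 8.15e-05, edgeR). Leaving out any 1 library kept *TEAD2* a DTG in both comparisons. Against yak of 18 months it was −1.54 (SE 0.375, adjusted p = 0.0586, edgeR) and missed the threshold with all libraries. It passed there without replicate 2 of that group, at −1.35 (adjusted p = 0.0442, edgeR), and in DESeq2 with all libraries. Between yak of 4 years and 6 months the value was −0.17 (SE 0.178, adjusted p = 0.409, edgeR), and 0.41 when counts were scaled by library size alone.

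*TEAD3* (ENSBGRG00000015934) fell with age, and its mean in cattle–yak lay between those of yak of 6 months and 4 years. It had 5.52, 7.10 and 6.78 FPKM at 6 months, 4.54, 3.89 and 5.15 at 18 months, 3.54, 1.64 and 2.32 at 4 years and 5.77, 4.90 and 3.5 in cattle–yak. At 4 years the log2 fold change against 6 months was −1.90 (SE 0.308, adjusted p = 0.000498, edgeR). Between cattle–yak and yak of 4 years it was 0.92 (SE 0.348, adjusted p = 0.0459, edgeR), short of the fold threshold. The ranges of these groups overlapped, since cattle–yak replicate 3 lay below yak of 4 years replicate 1. *TEAD3* was a DTG at 1.11 without the former and at 1.35 without the latter.

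*TEAD4* (ENSBGRG00000013389) was the scarcest gene of the set, with 9 to 48 counts a library. Its level was 0.20, 0.24 and 0.54 FPKM at 6 months, 0.35, 1.29 and 0.57 at 18 months, 1.30, 1.70 and 1.56 at 4 years and 0.49, 0.63 and 0.48 in cattle–yak. It rose from 6 months to 4 years by a log2 fold change of 1.63 (SE 0.450, adjusted p = 0.00961, edgeR) and differed in cattle–yak from yak of 4 years by −1.48 (SE 0.323, adjusted p = 0.00384, edgeR). By limma on log2(FPKM + 1), which compresses values this low, these came to 0.93 and −0.72 and passed no fold threshold. The highest pubertal library, replicate 2, was the one with spermatid markers.

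The same levels can be given as the share of each gene in the summed FPKM of *TEAD2*, *TEAD3* and *TEAD4* within each library. *TEAD2* made up 66.1%, 74.2% and 71.1% in yak of 4 years and 26.2%, 30.1% and 29.8% in cattle–yak. At 6 months its share was 48.7% to 56.8%, and at 18 months 52.7%, 59.9% and 38.1%. *TEAD3* made up 12.6% to 24.8% in yak of 4 years and 61.7% to 68.0% in cattle–yak. Of the TEAD genes measured, *TEAD3* had the largest share in the cattle–yak libraries and in yak of 18 months replicate 3, at 55.7%, and *TEAD2* in all other libraries. The sum over the genes was 13 to 14.3 FPKM in yak of 4 years, 13.2 to 14.7 at 6 months, 9.24 to 12.9 at 18 months and 5.67 to 8.48 in cattle–yak. *TEAD1* is not in these sums.

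*VGLL3* was then set against its TEAD partners within each library, a ratio that does not depend on scaling between libraries. The ratio of *VGLL3* to *TEAD2* in FPKM was 2.85 to 4.22 in yak of 4 years and 1.86 to 6.50 in cattle–yak, which overlapped. It was 1.81 to 3.80 at 6 months and 2.76 to 4.17 at 18 months. Both genes were thus low in cattle–yak, with a ratio inside the range of the yak libraries in replicates 1 and 2 and above it in replicate 3. Set against *TEAD3*, *VGLL3* had ratios of 9.62, 24.8 and 11.7 in yak of 4 years and of 1.15, 0.904 and 3.14 in cattle–yak. The younger yak had 2.47 to 5.49, a range that cattle–yak replicate 3 entered. Set against *TEAD4*, the ratio was 17.4 to 26.2 in yak of 4 years and 7.03 to 22.9 in cattle–yak, which overlapped, with 48.8 to 79.5 at 6 months and 16.5 to 56.6 at 18 months. The ratio of *VGLL3* to *YAP1* was 0.59 to 0.731 in yak of 4 years and 0.0685 to 0.162 in cattle–yak, with 0.179 to 0.385 in the younger yak. Against *WWTR1* it was 0.862 to 1.07 in yak of 4 years and 0.0832 to 0.223 in cattle–yak. All these ratios in cattle–yak hold the level for which *VGLL3* was chosen. They are a description, and low ratios to *TEAD3*, *TEAD4* or the coactivators are no separate result.

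**Figure D2:**
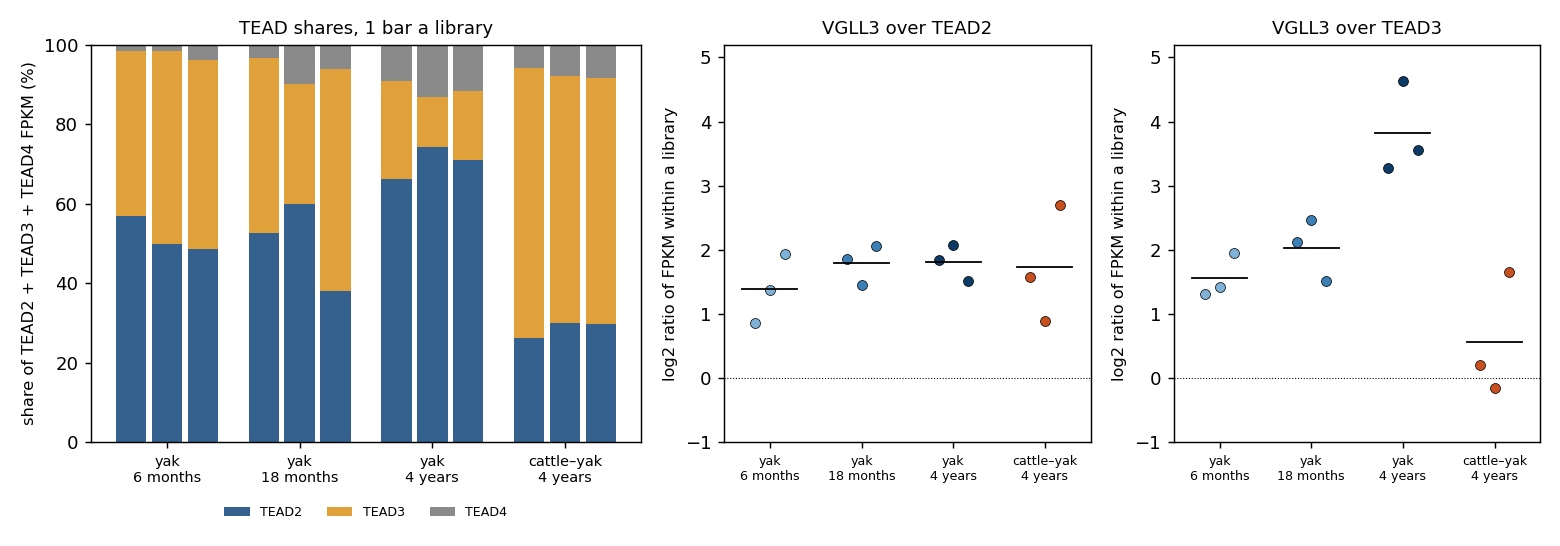
Left, share of *TEAD2*, *TEAD3* and *TEAD4* in their summed FPKM (percent, stacked, 1 bar a library); middle and right, log2 ratio of *VGLL3* FPKM to *TEAD2* and *TEAD3* FPKM within each library (points; bars are group means). *TEAD2* holds 26.2% to 30.1% in the cattle–yak libraries and 66.1% to 74.2% in yak of 4 years. The ratio to *TEAD2* overlaps between these groups and the ratio to *TEAD3* does not. Both ratios hold the low cattle–yak level for which *VGLL3* was chosen and are a description.

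*YAP1* (ENSBGRG00000016272) had the highest or second highest mean of the set in every group. Its level was 56.3 to 74.4 FPKM at 6 months, 66.9 to 87.9 at 18 months, 46.1 to 55.5 at 4 years and 59.1 to 68.0 in cattle–yak. Cattle–yak differed from yak of 4 years by 0.43 on the log2 scale (SE 0.130, adjusted p = 0.0181, edgeR), below the fold threshold. At 4 years against 6 months it was −0.96 (SE 0.151, adjusted p = 0.000389, edgeR), just short of it, and −1.04 without yak of 4 years replicate 1. Against yak of 6 months, cattle–yak had −0.51 (SE 0.124, adjusted p = 0.00805, edgeR), and 0.02 when scaled by library size alone. The effective length behind the FPKM of *YAP1* was not the same in the groups: the relative ratio of counts to FPKM was 0.821 to 0.842 in yak of 4 years and 0.905 to 0.931 in cattle–yak.

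*WWTR1* (ENSBGRG00000016273), the paralog of *YAP1*, fell with age. It had 54.4, 73.9 and 73.8 FPKM at 6 months, 73.0, 41.9 and 55.6 at 18 months, 33.1, 37.9 and 31.5 at 4 years and 52.9, 53.3 and 49.3 in cattle–yak. The log2 fold change at 4 years against 6 months was −1.58 (SE 0.148, adjusted p = 1.6e-05, edgeR). On the FPKM scale it came to −0.95, short of the threshold, by limma. Between cattle–yak and yak of 4 years it was 0.63 (SE 0.129, adjusted p = 0.0028, edgeR) and below the fold threshold, with no overlap of the libraries. The ratio of *WWTR1* to *YAP1* was 0.967 to 1.08 at 6 months, 0.595 to 0.684 in yak of 4 years and 0.724 to 0.896 in cattle–yak.

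The kinase genes moved in opposite directions with age. *LATS1* (ENSBGRG00000017268) had 7.53, 11.5 and 12.5 FPKM at 6 months and 4.63, 4.97 and 4.92 FPKM at 4 years. *LATS2* (ENSBGRG00000013606) had 1.73, 2.16 and 2.39 FPKM at 6 months and 7.49, 8.74 and 8.09 FPKM at 4 years. The log2 fold change at 4 years against 6 months was −1.67 for *LATS1* (SE 0.174, adjusted p = 2.98e-05) and 1.39 for *LATS2* (SE 0.169, adjusted p = 8.37e-05, both edgeR). On the FPKM scale with a pseudocount of 1, *LATS1* came to −0.95.

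In cattle–yak the means of both kinase genes lay between those of these ages. *LATS1* had 7.72, 7.96 and 7.41 FPKM and *LATS2* had 4.07, 4.32 and 4.63 FPKM. Against yak of 4 years, *LATS1* was higher by 0.68 (SE 0.128, adjusted p = 0.00177) and *LATS2* lower, at −0.89 (SE 0.136, adjusted p = 0.000559, both edgeR). Neither reached the fold threshold in any fit with 1 library left out, though the libraries of the groups did not overlap. The ratio of *LATS2* to *LATS1* was 0.188 to 0.230 at 6 months, 1.62 to 1.76 in yak of 4 years and 0.527 to 0.625 in cattle–yak. *LATS2* thus exceeded *LATS1* in yak of 4 years and in no other library.

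The pubertal libraries had ratios of 0.185, 0.699 and 0.630. Their spermatid marker sums were 2.86, 7200 and 17.0 FPKM and their Sertoli marker sums 6250, 2000 and 2930 FPKM, in the same order. The part of these cells in the ratio was not tested.

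**Figure D3:**
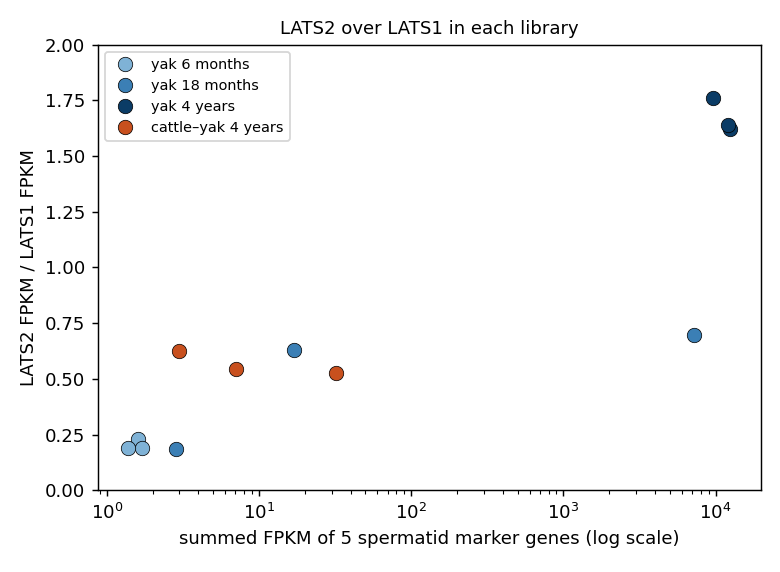
Ratio of *LATS2* to *LATS1* in FPKM (y axis) against the summed FPKM of 5 spermatid markers (x axis, log scale) in the 12 libraries, 1 point each. Yak of 4 years lie at 1.62 to 1.76, cattle–yak at 0.527 to 0.625 with marker sums of 2.98 to 32.0.

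*AMOTL2* (ENSBGRG00000003321) was the gene of the set with the highest fold change in cattle–yak against yak of 4 years. It had 12.04, 16.9 and 18.3 FPKM at 6 months, 13.9, 9.93 and 14.7 at 18 months, 8.09, 7.62 and 6.12 at 4 years and 32.6, 20.1 and 27.3 in cattle–yak. Each cattle–yak library was above each yak library in FPKM, though after TMM scaling cattle–yak and yak of 6 months overlapped. The log2 fold change against yak of 4 years was 1.89 (SE 0.215, adjusted p = 0.00011, edgeR), 3.69-fold higher, and leaving out any 1 library did not change this call. Against yak of 6 months the value was 0.23 (SE 0.195, adjusted p = 0.333) and against yak of 18 months 0.90 (SE 0.292, adjusted p = 0.107, both edgeR). With age it fell by 1.67 on the log2 scale between 6 months and 4 years (SE 0.183, adjusted p = 4.19e-05, edgeR).

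**Figure D4:**
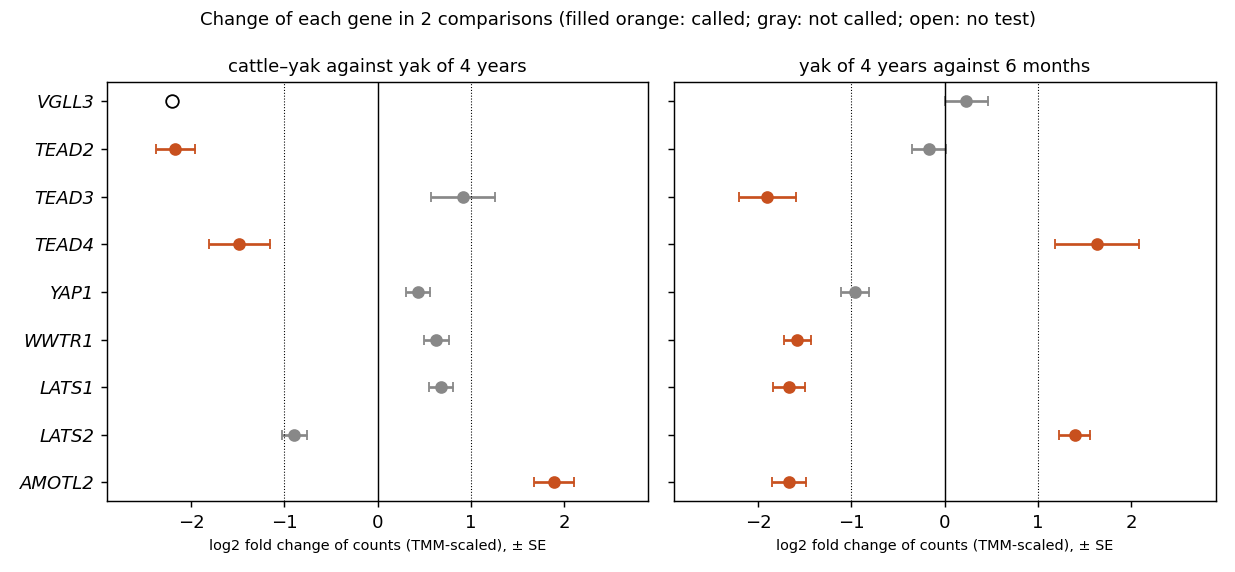
Log2 fold change of each Hippo gene (points, with error bars of 1 SE; edgeR, TMM scaling) for cattle–yak against yak of 4 years and for yak of 4 years against 6 months. *VGLL3* is drawn without an error bar in the first comparison, where it was not tested; *TEAD2* lies at −2.17 and −0.17 and *AMOTL2* at 1.89 and −1.67.

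Between yak of 4 years and 6 months, 6 of the 9 genes were DTGs: *TEAD4* and *LATS2* were higher and *WWTR1*, *TEAD3*, *LATS1* and *AMOTL2* lower at 4 years. Of all genes tested there 55.7% were DTGs, 31% higher and 24.7% lower. Between cattle–yak and yak of 6 months 1 of 8 was a DTG, *TEAD2*, on the lower side, where 37.8% of all genes were DTGs and 19.7% on the lower side. Without yak of 6 months replicate 1, *WWTR1* (−1.02), *TEAD3* (−1.01) and *LATS1* (−1.11) were DTGs as well, and without cattle–yak replicate 1 *TEAD3* (−1.15). Of all genes, 2864 were higher and 2990 lower of 16053 in the former fit, and 2632 and 2840 of 15857 in the latter. The comparisons share libraries, so their counts are not independent.

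In comparisons with yak of 18 months no gene of the set was a DTG. At 18 months against 6 months it was 0 of 9, with 0.0672% of all genes called, and 2 genes at an unadjusted p below 0.05. DESeq2 also called 0 of the 9, with 12.6% of all genes. At 4 years against 18 months it was 0 of 9, with 0.0371% of all genes called, and 7 at an unadjusted p below 0.05. DESeq2 called 0 of these as well, with 27.1% of all genes. Between cattle–yak and yak of 18 months it was 0 of 8, with 5.8% of all genes called, and 2 at an unadjusted p below 0.05. DESeq2 called 1, *TEAD2*, with 15.3% of all genes. How many of all genes had an unadjusted p below 0.05 was not counted. The numbers at that threshold are thus no result about the set. Leaving out replicate 2 of yak of 18 months changed 2 of the edgeR counts of DTGs. At 4 years against 18 months 7 of the 9 genes then were DTGs, with 44.6% of all genes called. *TEAD4* and *LATS2* were higher and *YAP1*, *WWTR1*, *TEAD3*, *LATS1* and *AMOTL2* lower at 4 years, from −1.20 for *AMOTL2* to 1.41 for *TEAD4*. Between cattle–yak and yak of 18 months *TEAD2* was then called, with 15.3% of all genes.

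Ordered by mean FPKM, the coactivators led and *TEAD4* came last in all groups. In yak of 4 years *VGLL3* held rank 3 at 34.0 ± 6.72 (SD, n = 3), level with *WWTR1* at 34.2 ± 3.36, and the ranges of these genes overlapped. In cattle–yak it held rank 5 at 7.35 ± 3.34 (SD, n = 3), and its range overlapped with those of its neighbours *LATS1* at 7.70 ± 0.276 and *TEAD3* at 4.72 ± 1.15. *AMOTL2* held rank 3 in cattle–yak at 26.7 ± 6.29, apart from *WWTR1* above it and *LATS1* below it. It held rank 6 in yak of 4 years at 7.28 ± 1.03. At 6 and 18 months *VGLL3* held rank 3 at 19.7 ± 6.38 and 18.6 ± 3.49, and its range overlapped with that of *AMOTL2*.

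Of 23 further genes upstream of YAP1, 21 were tested in cattle–yak against yak of 4 years, of which 3 were higher and 5 lower DTGs, against 17.1% and 27% of all genes. The median log2 fold change was 0.01, and that of all tested genes was 0.00 when rounded. *STK3*, the kinase that activates the LATS kinases, was higher by 1.12 (SE 0.113, adjusted p = 5.27e-05, edgeR). Its paralog *STK4* had 0.91 and missed the fold threshold, but passed it at 1.02 without yak of 4 years replicate 3. The scaffold *SAV1* had −0.93 and also missed it, but passed it at −1.07 without yak of 4 years replicate 2. *NF2*, which brings LATS kinases to the membrane, was lower, at −1.16 (SE 0.151, adjusted p = 0.000236, edgeR) and dropped below the fold threshold at −0.98 without yak of 4 years replicate 3. *AMOT*, the angiomotin that gives the family its name, was higher by 1.25 (SE 0.188, adjusted p = 0.000523, edgeR), in the direction of *AMOTL2*. The remaining member, *AMOTL1*, was lower, at −1.83 (adjusted p = 4.81e-05, edgeR) and is named here after its value was seen. Members of the angiomotin family thus did not move one way. The other DTGs, likewise named after their values were seen, were *MAP4K4* (1.52) on the higher side and *WWC2* (−2.72), *FAT4* (−2.29) and *AJUBA* (−1.28) on the lower side.

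Between 4 years and 6 months in yak, 2 of the 21 upstream genes were higher and 8 lower, where 31% and 24.7% of all genes were, with a median of −0.72 against 0.08 over all genes. By library size alone 3 were higher and 4 lower, where 6596 and 2493 of all 16133 genes were. By limma on log2(FPKM + 1) it was 3 and 3, where 5652 and 2051 of all genes were. *NF2* was higher by 1.40 (adjusted p = 5.57e-05), *STK3* lower, at −1.25 (adjusted p = 2.92e-05) and *AMOT* lower, at −1.87 (adjusted p = 6.13e-05, all edgeR). Against yak of 6 months, 0 of the 21 were higher and 6 lower in cattle–yak, where 2823 and 3067 of all 15571 genes were.

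Against yak of 4 years, *VGLL1* and *VGLL4* were higher in cattle–yak, where *VGLL3* was lower. *VGLL4*, which bears a pair of TEAD-binding motifs and opposes YAP1, was matched through its deposited description. It had 46.0, 63.5 and 44.3 FPKM at 6 months, 18.3, 22.3 and 19.1 at 4 years and 42.4, 53.2 and 47.3 in cattle–yak. It was higher in cattle–yak than in yak of 4 years by 1.28 (SE 0.140, adjusted p = 8.66e-05, edgeR). *VGLL1*, matched in the same way and named after its value was seen, had 42.5, 62.2 and 75.0 FPKM at 6 months, 11.3, 12.1 and 10.5 at 4 years and 25.4, 27.1 and 30.7 in cattle–yak. It was higher by 1.35 (SE 0.157, adjusted p = 0.000125, edgeR).

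Both genes were lower at 4 years than at 6 months, where *VGLL3* was no DTG. *VGLL4* had −1.92 (SE 0.174, adjusted p = 1.33e-05) and *VGLL1* −3.00 (SE 0.194, adjusted p = 1.6e-06, both edgeR) at 4 years against 6 months. At 18 months against 6 months *VGLL4* had 0.11 (SE 0.317, adjusted p = 0.843) and *VGLL1* −0.09 (SE 0.362, adjusted p = 0.886, both edgeR). Against yak of 6 months, in cattle–yak *VGLL1* was lower, at −1.63 (SE 0.174, adjusted p = 0.000134, edgeR) and *VGLL4* had −0.62 (SE 0.165, adjusted p = 0.0125, edgeR), below the fold threshold. Against yak of 18 months, *VGLL1* had −1.5 (SE 0.381, adjusted p = 0.0645) and *VGLL4* −0.69 (SE 0.321, adjusted p = 0.199, both edgeR), and neither was a DTG. Without yak of 18 months replicate 2 *VGLL1* was, at −1.83 (adjusted p = 0.00497, edgeR). *VGLL3* also lay on the lower side in cattle–yak against both younger groups. *VGLL2* had 3 to 31 counts a library and was not tested. In FPKM, *VGLL3* was above *VGLL1* and *VGLL4* in each library of yak of 4 years and below both in each of the other libraries, those of 6 and 18 months as well as cattle–yak.

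**Figure D5:**
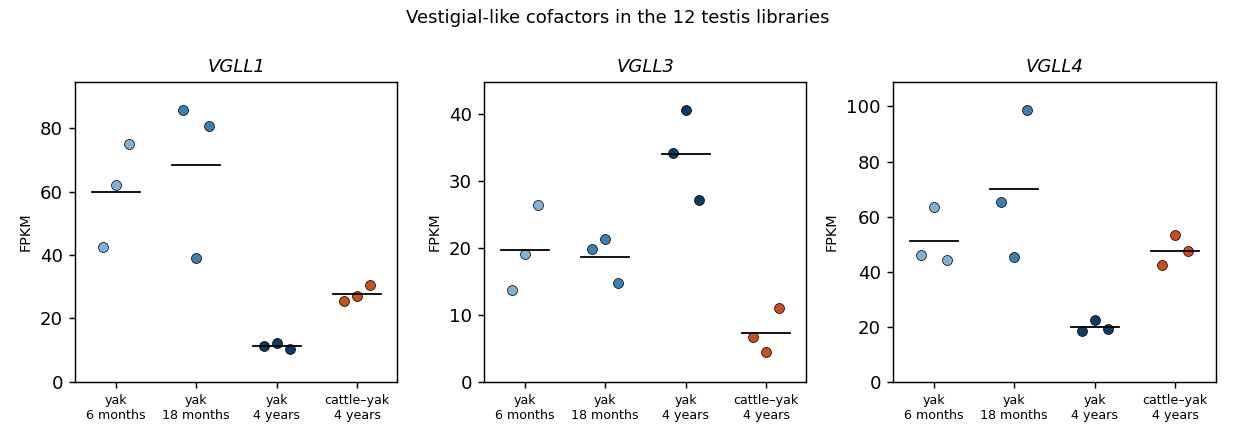
FPKM of *VGLL1*, *VGLL3* and *VGLL4* in each library (points, 3 per group; bars are group means). Cattle–yak lie at 4.43 to 10.99 FPKM for *VGLL3*, below the yak libraries, and for *VGLL1* and *VGLL4* above yak of 4 years.

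Of 19 genes known as YAP1 and TEAD targets, 17 were tested in cattle–yak against yak of 4 years, of which 5 were higher and 1 was lower, against 17.1% and 27% of all genes. The median log2 fold change was 0.81, and that of all genes 0.00 when rounded. *CCN1*, a secreted matricellular protein and classical target, was higher by 1.08 (SE 0.187, adjusted p = 0.00116, edgeR) and was at 0.997 without cattle–yak replicate 1. *CCN2*, its relative, had 0.96 (SE 0.142, adjusted p = 0.000459, edgeR), just short of the threshold. With 1 library left out, *CCN2* was a DTG in 3 of the fits, at up to 1.14. The other higher DTGs were *GADD45A* (1.71), *MYOF* (1.31), *CCDC80* (1.22) and *DOCK5* (1.1), and the lower one was *NUAK2* (−2.36), all named after their values were seen. *ANKRD1* did not pass the count filter in this comparison. Several of these genes, as well as *AMOTL2*, are also expressed in myoid and connective tissue cells, whose marker sums were higher in cattle–yak (4 of 5 fibroblast and 5 of 5 myoid markers tested were higher DTGs). Of the other marker lists, 3 of 6 Sertoli, 2 of 2 Leydig and 1 of 4 spermatogonial markers were higher DTGs, 1 of 6 endothelial markers was higher and 1 lower, and 1 of 4 macrophage, 1 of 5 spermatocyte and 5 of 5 spermatid markers were lower. The part of those cells was not tested.

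With age in yak more of the targets were lower than higher. At 4 years against 6 months 2 of 18 were higher and 11 lower, where 31% and 24.7% of all genes were, with a median of −1.52 against 0.08 over all genes. By library size alone, and by limma on log2(FPKM + 0.1), 3 were higher and 7 lower. Of all 16133 genes, 6596 were higher and 2493 lower by the former and 6617 and 2474 by the latter. By edgeR, 5 of 5 fibroblast, 2 of 2 Leydig, 5 of 6 Sertoli, 5 of 6 endothelial and 2 of 5 myoid markers were lower DTGs at 4 years. Of the other marker lists, 1 of 4 spermatogonial markers was lower, and 1 of 4 macrophage markers was lower and 1 higher. Higher DTGs were 4 of 5 spermatocyte and 5 of 5 spermatid markers. The part of those cells was not tested. *CCN1* was lower, at −1.58 (adjusted p = 0.000283), *ANKRD1* lower, at −5.40 (adjusted p = 0.000317), and *CCN2* higher by 1.29 (adjusted p = 0.00141, all edgeR). The targets did not move one way against yak of 6 months either. In cattle–yak 3 of 18 were higher and 7 lower there, where 2823 and 3067 of all 15571 genes were. *CCN2* was then higher by 2.28 (SE 0.237, adjusted p = 0.000119, edgeR).

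Across the 12 libraries, the genes with the pattern most like that of *VGLL3* were *TBL3* (Pearson r = 0.937), *MAPT* (0.928), *STX8* (0.924), *PSD3* (0.923) and *HIPK1* (0.920), out of 7022 genes compared on the log2 CPM scale. In CPM, *MAPT* had 28.1 ± 6.71 in yak of 4 years and 3.60 ± 0.963 in cattle–yak (SD, n = 3 each), and *PSD3* 37.2 ± 1.82 and 4.44 ± 0.515. The falls of the others were smaller: *TBL3* had 57.1 ± 7.04 and 38.8 ± 3.37, *STX8* 50.6 ± 7.94 and 17.1 ± 0.175 and *HIPK1* 76.0 ± 7.9 and 30.8 ± 2.77. A high r thus did not mean a fall of like size. Within the set, *TEAD2* was closest to *VGLL3* at r = 0.867, and over the 9 yak libraries alone it was 0.633. The other genes of the set ranged from −0.532 for *AMOTL2* to 0.370 for *TEAD4*. The libraries share their group and differ in depth and cell makeup, and the cattle–yak values for which *VGLL3* was chosen enter r, so a gene low in cattle–yak is favoured and these correlations describe the 12 libraries only.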

How the data were processed

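Testis Ribo-seq libraries of 3 animals a group were analysed in 4 groups. The authors filtered reads with fastp (0.20.0), removed rRNA with Bowtie2 (2.2.8) and other small RNA with BLAST (2.11.0), and aligned the rest to the yak genome BosGru 3.0 with STAR. The expected counts were made by the authors with RSEM (1.2.19) and deposited as whole numbers without normalization. The deposited FPKM divides them by effective length and library total. Deposited columns of the authors' log2 fold changes, p-values and FDR, and tables of group means, were not used.

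Genes were matched by symbol, *VGLL4* and *VGLL1* by the deposited description. Each pair of groups was fitted with edgeR 4.0.16 (filterByExpr, TMM, glmQLFit, glmQLFTest), with 3 libraries a group and Benjamini–Hochberg adjustment over all tested genes. SE is the size of the log2 fold change divided by the root of F. Alternatives were DESeq2 1.42.0, other scalings, no filter, all 12 libraries in 1 fit, limma 3.58.1 on log2(FPKM + 1) or log2(FPKM + 0.1), a replicate block and each library left out. Scripts were tested on simulated data. No libraries of a group were alike within sampling noise. Replicates are separate animals.

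The genes named were all of the set, *STK3*, *STK4*, *SAV1*, *NF2*, *AMOT*, *VGLL4*, *CCN1*, *CCN2* and *ANKRD1*, and the 5 genes with a symbol and above median level that had the highest r with *VGLL3*; others are marked as named after their values were seen. The genes, lists and tests were chosen with earlier results of these data known. Marker lists of Sertoli, Leydig, peritubular myoid, endothelial and macrophage cells, fibroblasts, spermatogonia, spermatocytes and spermatids were summed in FPKM.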

Additional observations from a re-analysis of the deposited data

How the results depend on the processing

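Totals of 16304058 to 52616039 counts with 3 libraries a group limit what can be called, most of all for *TEAD4* with 9 to 48 counts a library and in comparisons with the divided group of 18 months.

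The count of DTGs among the Hippo genes in cattle–yak against yak of 6 months was 2 with library size alone and 2 with limma on log2(FPKM + 0.1), and 1 to 4 with 1 library left out. Against yak of 18 months it was 1 with DESeq2 and 1 with all 12 libraries in 1 fit, and 0 to 1 with 1 library left out. At 4 years against 18 months it was 2 with all 12 libraries in 1 fit and 0 to 7 with 1 left out. Over all 16906 genes the fit of all 12 libraries had 1121 higher and 2365 lower there, and 903 and 1710 in cattle–yak against yak of 18 months. Limma on log2(FPKM + 0.1) had 4982 and 1887 of 15571 in cattle–yak against yak of 6 months. Without yak of 6 months replicate 1, where 4 of the Hippo genes were called, all genes had 2864 and 2990 of 16053. At 4 years against 6 months the Hippo genes had 3 with limma on log2(FPKM + 1), and 6 to 7 with 1 left out. Of all 16133 genes, that limma fit had 5652 higher and 2051 lower. The fit with 7, without yak of 4 years replicate 1, had 4957 and 4000 of 16648. At 4 years against 6 months the upstream list had 6 with limma on log2(FPKM + 1). The targets in cattle–yak against yak of 4 years had 5 to 9 with 1 library left out. The fit with 9, without yak of 4 years replicate 1, had 8 higher and 1 lower, where 3105 and 4269 of all 17076 genes were. *VGLL3* had −1.34 against yak of 6 months with limma on log2(FPKM + 1).

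Library size alone moved the median log2 fold change of all genes from −0.02 to 0.52 in cattle–yak against yak of 6 months, and from 0.08 to 0.64 at 4 years against 6 months, where DTGs went from 5009 higher and 3985 lower to 6596 and 2493. In cattle–yak against yak of 6 months they went from 2823 and 3067 to 4867 and 1875. Without yak of 18 months replicate 2, DTGs of all genes at 4 years against 18 months went from 0 higher and 6 lower to 4277 and 3033. Without replicate 1 of that group, DTGs of all genes at 18 against 6 months went from 3 higher and 7 lower to 1344 and 1249. The Hippo genes stayed at 0 of 9 there.

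The sign changed in 19 of the values of single genes. With library size alone these were *YAP1* (0.0233) against yak of 6 months and *TEAD3* (0.0775) against yak of 18 months in cattle–yak, *YAP1* (0.285) at 18 against 6 months and *TEAD2* (0.406) at 4 years against 6 months. With limma on log2(FPKM + 1) and log2(FPKM + 0.1), *TEAD3* had 0.0365 and 0.0402, *YAP1* 0.247 and 0.25 and *TEAD2* 0.35 and 0.388 in the same comparisons. With 1 library left out, *TEAD4* ranged from −0.0261 to 0.63 in cattle–yak against yak of 6 months, and *YAP1* from −0.287 to 0.118 at 18 against 6 months. Against yak of 18 months, *WWTR1* ranged from −0.517 to 0.105, *TEAD3* from −0.277 to 0.0933 and *LATS2* from −0.245 to 0.193. None of these values was a DTG with all libraries, and the cause was not tested.

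Same-numbered libraries did not deviate together, with correlations from −0.327 to 0.159, and 5 of 18 were closest to their own number. With the replicate block the Hippo genes had 3 DTGs in cattle–yak against yak of 4 years and 6 at 4 years against 6 months, as without it. Of all genes, 2763 were higher and 4384 lower of 16498 in the former block fit, and 4851 and 3875 of 16133 in the latter.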
